A study of Homo sapiens with 6 samples.

Results

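The 34 genes described here encode the enzymes that charge mitochondrial tRNAs, the factors that carry the mitochondrial ribosome through initiation, elongation, termination and recycling, and enzymes that modify mitochondrial tRNAs. They were chosen by name, as the rows of the count files whose NCBI Gene ID maps to a symbol on a fixed list, and all 34 were found among the 28395 gene IDs of each file. HCT116 cells, a colorectal cancer line, were treated for 24 h with 50 nM TR-107 (3 libraries) or with the vehicle alone, 0.1% DMSO (3 libraries). TR-107 is an agonist of ClpP, a protease of the mitochondrial matrix, and polyadenylated RNA was sequenced to find which transcripts differ when ClpP is activated. Nothing in the labels says how the replicate cultures were separated, so the p-values speak to the spread among these 6 libraries.

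Mitochondria make a small set of respiratory chain proteins on their own ribosomes. The ribosomal and transfer RNAs for this come from the mitochondrial genome, whereas every protein of the apparatus, including those described here, is encoded in the nucleus and imported. A mitochondrial aminoacyl-tRNA synthetase attaches an amino acid to its tRNA, initiation factors place the formylated initiator tRNA on the ribosome, elongation factors deliver charged tRNAs and move the ribosome along, and release and recycling factors end the cycle. Mutations in many of these genes cause inherited mitochondrial disease.

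The libraries held 17264039 to 22243758 gene counts in TR-107 and 18344471 to 23708135 in DMSO. The members together took 0.166% to 0.168% of counts in TR-107 and 0.209% to 0.211% in DMSO. Levels are given as CPM, the share of a scaled library that a gene takes, and each fold change sets TR-107 over DMSO, on the log2 scale, with its standard error. Epithelial transcripts were present in all libraries, with EPCAM at 396 CPM in TR-107 and 381 CPM in DMSO and KRT8 at 2694 and 2646 CPM. The leukocyte marker PTPRC, the endothelial marker CDH5 and the fibroblast marker COL3A1 had no count in any library. PECAM1, also endothelial, had at most 0.384 CPM in TR-107 and 0.214 CPM in DMSO and did not pass the filter on low counts. KRT18 and CDH1, also epithelial, rose (log2 fold changes 0.27 and 0.79), and the collagen gene COL1A1 averaged 17.2 CPM in TR-107 and 14.3 CPM in DMSO and did not pass the test. CLPP itself averaged 61.3 ± 3.05 CPM in TR-107 and 76.5 ± 2.53 CPM in DMSO (SD, n = 3 each). These are bulk libraries, in which fewer cells with a transcript and less of it per cell cannot be told apart.

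Of the 34 members, 33 passed the filter on low counts. Among these, 19 fell and 6 rose after TR-107 in edgeR's quasi-likelihood test (adjusted p below 0.05), and 8 did not pass. Over all 13767 genes tested, 57.8% passed this threshold, 28.6% as lower and 29.2% as higher. For the members the shares were 57.6% lower and 18.2% higher, and their median log2 fold change was -0.30, against 0.01 over all genes. Changes of at least 1.5-fold were less common: 6 members were lower by that much and 1 was higher, which is 18.2% and 3.03% of those tested, while 10.5% of all genes tested were lower and 13.7% higher by that size. In 21 members all TR-107 libraries lay below all DMSO libraries, and in 5 they lay above, where the shares over all genes were 30.9% and 31.5%.

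Summed over the 34 genes, the level was 1706 ± 28.9 CPM in TR-107 and 2054 ± 2.10 CPM in DMSO (SD, n = 3 each). The decrease was uneven over the roles. Synthetase transcripts summed to 581 ± 12.02 CPM in TR-107 and 769 ± 3.16 CPM in DMSO, and the elongation factors to 451 ± 6.52 and 577 ± 6.91 CPM. The tRNA modification enzymes summed to 227 ± 1.595 and 261 ± 5.11 CPM, and the amidotransferase subunits to 120 ± 4.21 and 136 ± 5.02 CPM. Initiation factors were not lower in sum, with 142 ± 3.49 CPM in TR-107 and 134 ± 4.49 CPM in DMSO. The termination and recycling factors summed to 184 ± 7.26 and 179 ± 5.02 CPM (SD, n = 3 each). Single genes made up most of some sums: TUFM averaged 367 CPM in TR-107 and 450 CPM in DMSO, and MTIF2 98.1 and 89.4 CPM.

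**Figure D1:**
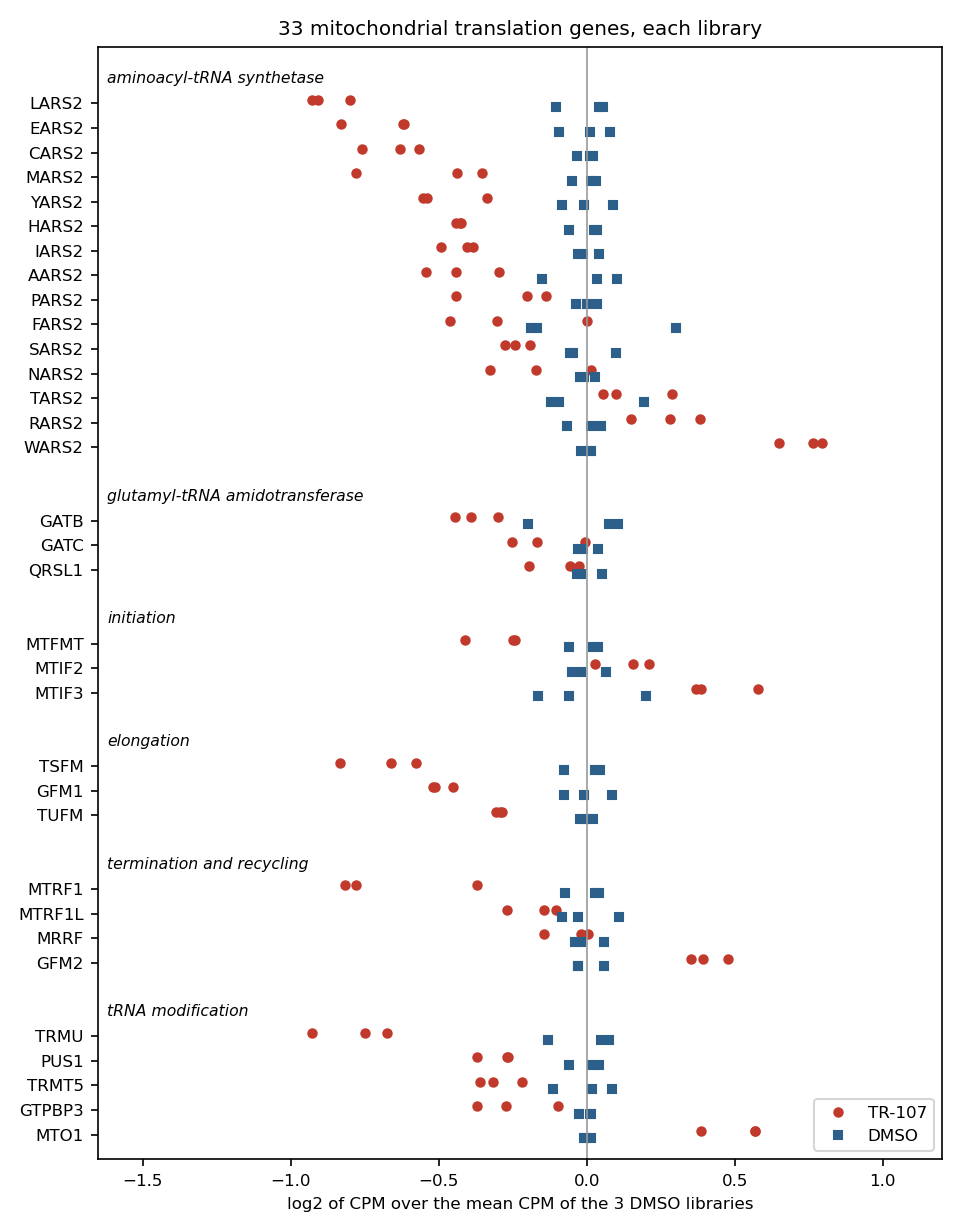
Level of each of the 33 tested members in every library, as log2 of its CPM over the mean of the 3 DMSO libraries, grouped by role and ordered by fold change within a role. Red circles are TR-107 libraries and blue squares DMSO libraries. The TR-107 libraries of WARS2, RARS2, GFM2, MTO1 and MTIF3 lie to the right of their DMSO libraries, and those of LARS2 and TRMU lie farthest to the left.

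Promoter sequences are shown for 4 members, to set beside the values that follow: LARS2 and WARS2, the synthetases with the lowest and the highest fold change, and GFM1 and GFM2, related elongation factor G proteins that moved in opposite directions. Each is the RefSeq window of GRCh38.p14 from 250 bases before to 50 bases after the annotated transcription start, written on the gene's own strand, with the match to a searched motif in capitals. The windows are chr3:45388326-45388625 (plus strand) for LARS2, chr1:119140623-119140922 (minus strand) for WARS2, chr3:158644277-158644576 (plus strand) for GFM1 and chr5:74767068-74767367 (minus strand) for GFM2. In LARS2 and WARS2 the capitals are the YY1 motif, and in GFM1 and GFM2 the ETS motif.
LARS2: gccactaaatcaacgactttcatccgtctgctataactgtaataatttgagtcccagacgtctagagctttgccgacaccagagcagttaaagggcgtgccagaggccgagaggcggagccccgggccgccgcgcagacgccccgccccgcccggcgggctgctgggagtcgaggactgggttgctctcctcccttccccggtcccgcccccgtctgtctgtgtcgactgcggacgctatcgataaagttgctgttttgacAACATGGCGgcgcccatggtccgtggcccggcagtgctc
WARS2: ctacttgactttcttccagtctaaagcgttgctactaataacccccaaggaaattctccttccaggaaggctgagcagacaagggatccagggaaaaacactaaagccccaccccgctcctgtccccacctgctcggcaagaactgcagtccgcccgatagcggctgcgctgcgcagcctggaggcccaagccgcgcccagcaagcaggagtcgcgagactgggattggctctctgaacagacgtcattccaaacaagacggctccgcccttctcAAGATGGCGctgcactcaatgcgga
GFM1: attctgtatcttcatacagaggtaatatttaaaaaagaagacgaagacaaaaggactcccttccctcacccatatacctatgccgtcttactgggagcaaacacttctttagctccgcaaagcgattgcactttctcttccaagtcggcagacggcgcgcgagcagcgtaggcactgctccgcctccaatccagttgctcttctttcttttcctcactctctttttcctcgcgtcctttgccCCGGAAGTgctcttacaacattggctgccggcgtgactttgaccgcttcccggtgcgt
GFM2: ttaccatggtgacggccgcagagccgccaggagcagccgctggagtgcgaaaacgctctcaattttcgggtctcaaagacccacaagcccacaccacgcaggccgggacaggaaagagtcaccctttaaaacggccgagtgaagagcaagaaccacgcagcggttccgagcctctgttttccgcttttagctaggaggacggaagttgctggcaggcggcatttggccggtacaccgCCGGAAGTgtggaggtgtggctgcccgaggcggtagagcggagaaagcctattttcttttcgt

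The first bases of the capitals lay at 12 and 26 from the start site in LARS2 and WARS2, and at -8 and -13 in GFM1 and GFM2. Windows were at hand for 29 of the 34 members, and 5 motifs were searched on both strands. In the 4 windows printed, the match in capitals was the sole match to any of the 5, so none overlapped another. The ETS motif CCGGAAGT, read by factors such as GABP, was in 8 of the 29 members (27.6%) and in 9.77% of the 10794 tested genes with a window. Its holders were EARS2, GFM1, GFM2, HARS2, MTRF1L, PARS2, TRMU and TUFM. Of these, 5 fell, GFM2 rose, and PARS2 and MTRF1L did not pass the test. The YY1 motif AANATGGCG was in LARS2, WARS2 and YARS2 (10.3%, against 7.95% of tested genes), the NRF1 motif in IARS2, MARS2 and PARS2 (10.3%, against 13.0%) and the E-box CACGTG in CARS2, EARS2 and MARS2 (10.3%, against 12.5%). The ATF4 composite motif TGATGNAAT was in none of the member windows and in 0.686% of those of tested genes. In the windows printed, YY1 and ETS matches each stood in a gene that fell and in a gene that rose. Whether a motif goes with the direction of change was not tested, and a match is no evidence of binding.

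The aminoacyl-tRNA synthetases made up 16 of the members, of which 15 were tested, 9 fell, 2 rose and 4 did not pass, with a median log2 fold change of -0.42. LARS2, which charges mitochondrial tRNA for leucine (gene ID 23395, chromosome 3, 45388576 to 45549407, GRCh38), had 37.0, 36.5 and 39.9 CPM in TR-107, against 72.2, 64.7 and 71.5 CPM in DMSO. The highest TR-107 library was far below the lowest DMSO library, and the gene was 1.83-fold lower (log2 fold change -0.87 ± 0.07, SE; edgeR adjusted p = 4.92e-14). No other member fell by as much.

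EARS2, the glutamyl-tRNA synthetase (gene ID 124454, chromosome 16, 23520754 to 23557375), had 52.8, 52.9 and 45.7 CPM in TR-107, against 76.0, 85.6 and 81.8 CPM in DMSO, and was 1.61-fold lower (edgeR adjusted p = 9.97e-12). CARS2, for cysteine, had 33.5, 35.0 and 30.6 CPM in TR-107, against 50.7, 52.6 and 52.2 CPM in DMSO, and was 1.57-fold lower (edgeR adjusted p = 1.54e-09). In both genes the groups were well apart. IARS2, for isoleucine and the most abundant synthetase of the set, had 161, 173 and 171 CPM in TR-107, against 225, 222 and 233 CPM in DMSO, so that its log2 fold change of -0.43 had the smallest error of the synthetases (0.04, SE).

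HARS2 (histidine), AARS2 (alanine), MARS2 (methionine), YARS2 (tyrosine) and SARS2 (serine) also fell, with log2 fold changes of -0.43, -0.42, -0.51, -0.47 and -0.23. In each of them all TR-107 libraries were below all DMSO libraries. SARS2 stood closest to the threshold (edgeR adjusted p = 0.0151), and without DMSO replicate 1 it missed it (log2 fold change -0.20, edgeR adjusted p = 0.0823). Of the SARS2 exon bases, 57.0% also lie in exons of other genes, mostly AC011455.2 and in part MRPS12, a ribosomal protein gene that averaged 50.1 CPM in TR-107 and 90.1 CPM in DMSO.

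WARS2 and RARS2 rose. WARS2, for tryptophan (gene ID 10352, chromosome 1, 119031216 to 119140672), had 11.9, 11.6 and 10.7 CPM in TR-107, against 6.74, 6.90 and 6.86 CPM in DMSO, a log2 fold change of 0.74 ± 0.16 (SE; 1.66-fold; edgeR adjusted p = 0.000106). It was the member with the highest fold change and, apart from VARS2, the lowest CPM in DMSO, and rested on 203 to 230 reads per library in TR-107 and 126 to 166 in DMSO. RARS2, for arginine, had 48.7, 41.5 and 45.5 CPM in TR-107, against 38.7, 37.8 and 35.7 CPM in DMSO (log2 fold change 0.28 ± 0.08, SE; edgeR adjusted p = 0.00301). For both genes the groups did not overlap.

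FARS2, NARS2, PARS2 and TARS2, for phenylalanine, asparagine, proline and threonine, did not pass the test, with log2 fold changes of -0.24, -0.15, -0.25 and 0.15. Their groups overlapped except in PARS2, whose TR-107 libraries had 10.0 to 12.4 CPM and whose DMSO libraries had 13.3 to 14.0 CPM (edgeR adjusted p = 0.113). VARS2, the valyl-tRNA synthetase, was not tested: it had 0, 4 and 0 reads in TR-107 and 64, 22 and 2 reads in DMSO, so its DMSO libraries differed widely. Its locus is in a stretch of chromosome 6 where few genes were counted. Of the 83 protein-coding genes that start within 1 Mb of it, 7 (8.43%) passed the filter, against 58.7% of the other 911 on the chromosome. How reads that match several places were counted is not given in the sources used here, and no level is read from the VARS2 counts.

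In most pairs compared, the mitochondrial enzyme parted from the cytosolic enzyme for the same amino acid. The read ratio of mitochondrial to cytosolic transcript was taken in 12 chosen pairs with both genes tested. It was lower in all TR-107 than in all DMSO libraries in 10 pairs and higher in 1. The median difference was -1.09 on the log2 scale (TR-107 minus DMSO). For single genes, the groups did not overlap in 30.9% (lower) and 31.5% (higher) of all genes tested. The share over other pairs of genes was not computed. The widest gap was that of CARS2 over CARS1, whose log2 ratio was 0.66 ± 0.48 in TR-107 and 3.09 ± 0.20 in DMSO (SD, n = 3 each). SARS2 over SARS1 was -3.87 ± 0.02 and -1.80 ± 0.08, and AARS2 over AARS1 was -4.65 ± 0.15 and -2.77 ± 0.14. For CARS1 the TR-107 libraries ranged from 15.4 to 31.4 CPM, so the first of these ratios is the least precise.

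WARS2 was no exception to this. Its own level rose, but that of WARS1 rose more (log2 fold change 1.56), and the log2 ratio was -5.19 ± 0.13 in TR-107 and -4.37 ± 0.06 in DMSO (SD, n = 3 each). Among the 12 pairs, RARS2 over RARS1 went the other way, as RARS1 fell (-0.59) and RARS2 rose. Its log2 ratio was -1.39 ± 0.16 in TR-107 and -2.26 ± 0.05 in DMSO. FARS2, EARS2 and PARS2 were in no pair, although they and their cytosolic counterparts were tested. FARS2 had a log2 fold change of -0.24, against -0.61 for FARSA and 0.08 for FARSB. EARS2 and PARS2 had -0.69 and -0.25, against 0.70 for EPRS1. HARS2 and HARS1 fell together (-0.43 and -0.33), and their log2 ratios, -1.32 to -1.23 in TR-107 and -1.27 to -1.12 in DMSO, overlapped. Of the HARS2 exon bases, 15.8% also lie in exons of HARS1 or ZMAT2, so the counts of this pair may not be independent. Among all 19 pairs compared, the exact two-sided permutation p was 0.1 at its smallest, which is the smallest that 3 libraries against 3 allow, or 0.119 after Benjamini-Hochberg adjustment over the pairs.

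**Figure D2:**
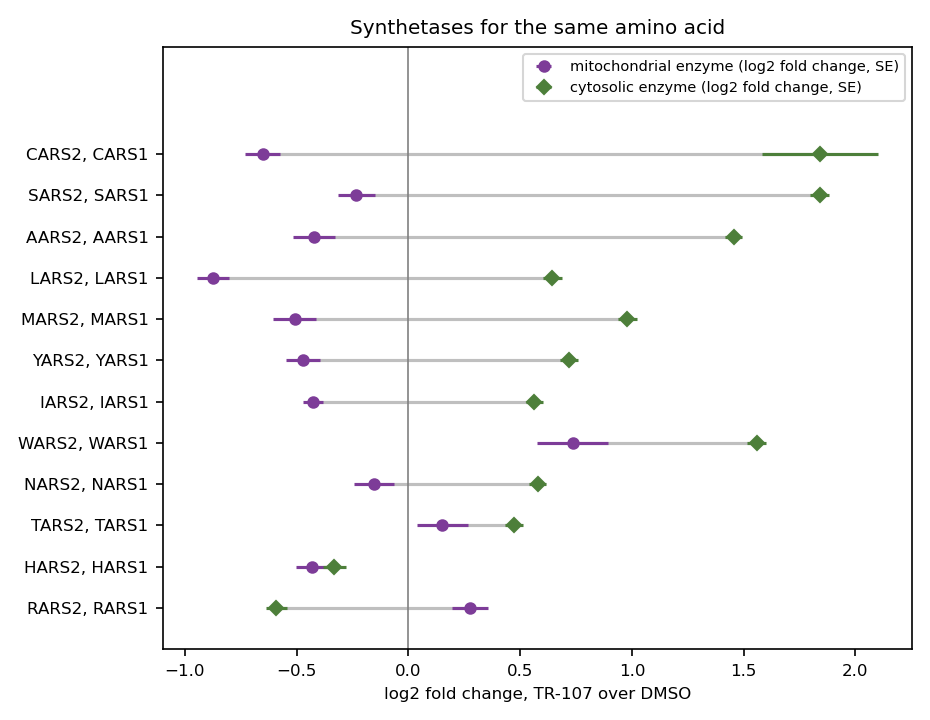
Log2 fold change, TR-107 over DMSO, of the mitochondrial synthetase (purple circle) and the cytosolic synthetase (green diamond) for the same amino acid, with standard errors, ordered by the change in their ratio. The grey line joins the pair; the cytosolic gene rose in 10 of the 12 pairs, and RARS is the pair in which it lies farthest below 0.

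Glycine and lysine have no separate mitochondrial synthetase gene: GARS1 and KARS1 each encode a cytosolic and a mitochondrial form. Their counts do not separate the forms. GARS1 averaged 592 ± 19.0 CPM in TR-107 and 239 ± 9.16 CPM in DMSO and rose, and KARS1 averaged 245 ± 2.79 and 296 ± 1.48 CPM and fell (SD, n = 3 each). On the list of 20 cytosolic and dual-use synthetases, 12 rose, 5 fell and 3 did not pass. The shares were 60% higher and 25% lower, where all genes tested had 29.2% and 28.6%. The median of the list was 0.61 on the log2 scale. By smallest p, SARS1, AARS1, WARS1 and GARS1 came first among those that rose (log2 fold changes 1.84, 1.45, 1.56 and 1.31), and RARS1, FARSA, HARS1 and KARS1 among those that fell (-0.59, -0.61, -0.33 and -0.28). CARS1 rose by a like size (1.84) with a larger error (0.26, SE). VARS1, at the far right of the plot of cumulative shares, did not pass: it had 18.1 CPM in TR-107 replicate 1 and under 1 CPM in the other libraries.

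Mitochondrial tRNA for glutamine is made by a detour: EARS2 first loads it with glutamate, and an amidotransferase of 3 subunits, GATB, GATC and QRSL1, converts this to glutamine. GATB had 24.9, 24.1 and 26.6 CPM in TR-107, against 28.5, 35.2 and 34.4 CPM in DMSO, and fell (log2 fold change -0.38 ± 0.09, SE; edgeR adjusted p = 0.000698). GATC and QRSL1, which contributes the amidase subunit, did not pass (log2 fold changes -0.14 and -0.09; edgeR adjusted p = 0.0908 and 0.322). The log2 ratio of GATB to QRSL1, -0.76 to -0.48 in TR-107 and -0.54 to -0.25 in DMSO, overlapped between groups, so the subunits were not shown to differ in their change. Of GATC's exon bases, 47.6% also belong to other genes, mostly to SRSF9, which fell (log2 fold change -0.34).

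At initiation the members differed. MTFMT, which formylates the initiator methionyl-tRNA, had 25.1, 24.99 and 22.3 CPM in TR-107, against 28.5, 30.1 and 30.5 CPM in DMSO, and fell (log2 fold change -0.30 ± 0.09, SE; edgeR adjusted p = 0.00555). MTIF3, an initiation factor that acts on the small subunit, had 21.8, 19.1 and 18.8 CPM in TR-107, against 16.7, 14.0 and 13.0 CPM in DMSO, and rose (0.45 ± 0.12, SE; edgeR adjusted p = 0.00145). Every TR-107 library of MTIF3 was above every DMSO library. MTIF3 shares 11.3% of its exon bases with GTF3A, which averaged 133 CPM in TR-107 and 125 CPM in DMSO and did not pass the test. MTIF2, the factor that brings the initiator tRNA to the ribosome, had 91.2, 99.6 and 103 CPM in TR-107, against 93.6, 86.4 and 88.2 CPM in DMSO; the groups overlapped, and the call (log2 fold change 0.14, edgeR adjusted p = 0.0389) was lost under 7 of 15 other settings.

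All 3 elongation factors fell. TUFM, the mitochondrial elongation factor Tu that carries charged tRNAs to the ribosome, had 364, 368 and 369 CPM in TR-107, against 450, 458 and 444 CPM in DMSO. The libraries of a group lay close together, and the log2 fold change was -0.30 ± 0.04 (SE; edgeR adjusted p = 1.02e-08). TSFM, which recharges TUFM with GTP, had 32.3, 38.6 and 36.4 CPM in TR-107, against 59.4, 58.6 and 54.6 CPM in DMSO, and was 1.61-fold lower (edgeR adjusted p = 3.34e-10). TSFM fell by more than TUFM, and the log2 ratio of TUFM to TSFM was 3.36 ± 0.12 in TR-107 and 2.97 ± 0.05 in DMSO (SD, n = 3 each).

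GFM1 and GFM2 share their origin in bacterial elongation factor G but divide its work: GFM1 moves the ribosome along the mRNA, and GFM2 acts with the recycling factor MRRF to split it after termination. GFM1 had 47.8, 50.2 and 48.0 CPM in TR-107, against 65.0, 68.1 and 72.7 CPM in DMSO, and fell (log2 fold change -0.50 ± 0.07, SE; edgeR adjusted p = 3.13e-08). GFM2 had 66.5, 68.5 and 72.6 CPM in TR-107, against 54.3, 51.0 and 51.1 CPM in DMSO, and rose (0.41 ± 0.07, SE; edgeR adjusted p = 9.31e-07). The order of the read counts, which are not set per length, was reversed, with a log2 ratio of GFM1 to GFM2 of -0.51 ± 0.08 in TR-107 and 0.39 ± 0.13 in DMSO (SD, n = 3 each).

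**Figure D3:**
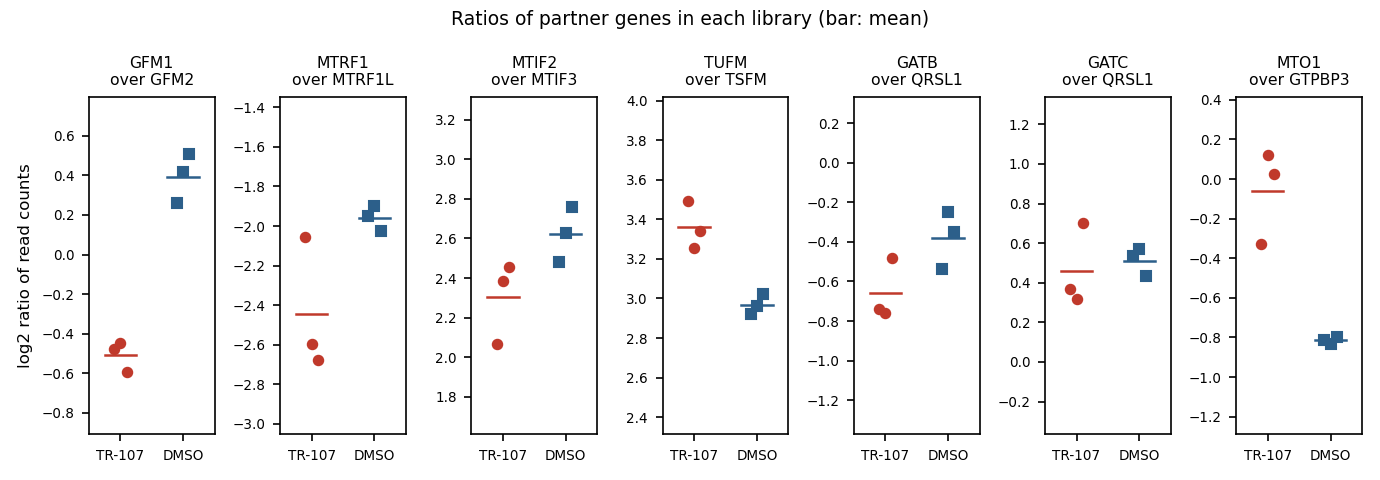
Log2 ratio of the read counts of partner genes in each library, TR-107 left (red circles) and DMSO right (blue squares), with the mean as a bar; all panels span the same height. GFM1 over GFM2 changed sign between groups, MTO1 over GTPBP3 was higher in all TR-107 libraries, and both ratios of amidotransferase subunits overlapped.

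Among the other termination and recycling factors, MTRF1 fell and MTRF1L and MRRF did not pass. MTRF1, a release factor, had 8.59, 6.47 and 6.29 CPM in TR-107, against 10.5, 11.3 and 11.4 CPM in DMSO (log2 fold change -0.65 ± 0.16, SE; edgeR adjusted p = 0.000780). MTRF1L, the release factor that reads the standard stop codons, had 35.8, 39.1 and 40.2 CPM in TR-107, against 40.7, 42.3 and 46.5 CPM in DMSO (-0.17 ± 0.08, SE; edgeR adjusted p = 0.0665). Its groups lay apart by a narrow margin, and 34.8% of its exon bases also lie in another annotated gene. The log2 ratio of MTRF1 to MTRF1L was -2.44 ± 0.34 in TR-107 and -1.96 ± 0.06 in DMSO (SD, n = 3 each). MRRF had 65.5 to 72.7 CPM in TR-107 and 70.3 to 75.4 CPM in DMSO.

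All 5 enzymes of tRNA modification changed, 4 downward and 1 upward. TRMU, which puts sulfur on the wobble uridine of some mitochondrial tRNAs (gene ID 55687, chromosome 22, 46335714 to 46357340), had 21.9, 26.0 and 24.7 CPM in TR-107, against 43.8, 42.9 and 38.0 CPM in DMSO. It was 1.71-fold lower with groups far apart (log2 fold change -0.78 ± 0.09, SE; edgeR adjusted p = 8.11e-10), next to LARS2 in size. NFS1, the desulfurase that supplies its sulfur, averaged 21.4 CPM in TR-107 and 34.2 CPM in DMSO and also fell (-0.67).

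MTO1 and GTPBP3 together add a taurine-containing group to the same wobble base. MTO1 had 47.6, 53.9 and 53.9 CPM in TR-107, against 36.8, 36.2 and 36.1 CPM in DMSO, and rose (log2 fold change 0.51 ± 0.08, SE; edgeR adjusted p = 2.21e-07). GTPBP3 had 59.8, 49.5 and 53.0 CPM in TR-107, against 64.6, 64.5 and 62.8 CPM in DMSO, and fell (-0.24 ± 0.07, SE; edgeR adjusted p = 0.00269). Partners in 1 reaction thus moved apart, with a log2 ratio of MTO1 to GTPBP3 of -0.06 ± 0.24 in TR-107 and -0.81 ± 0.02 in DMSO (SD, n = 3 each). PUS1, a pseudouridine synthase of nuclear, cytosolic and mitochondrial tRNAs, and TRMT5, a guanosine methyltransferase beside the anticodon, each had a log2 fold change of -0.30.

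**Figure D4:**
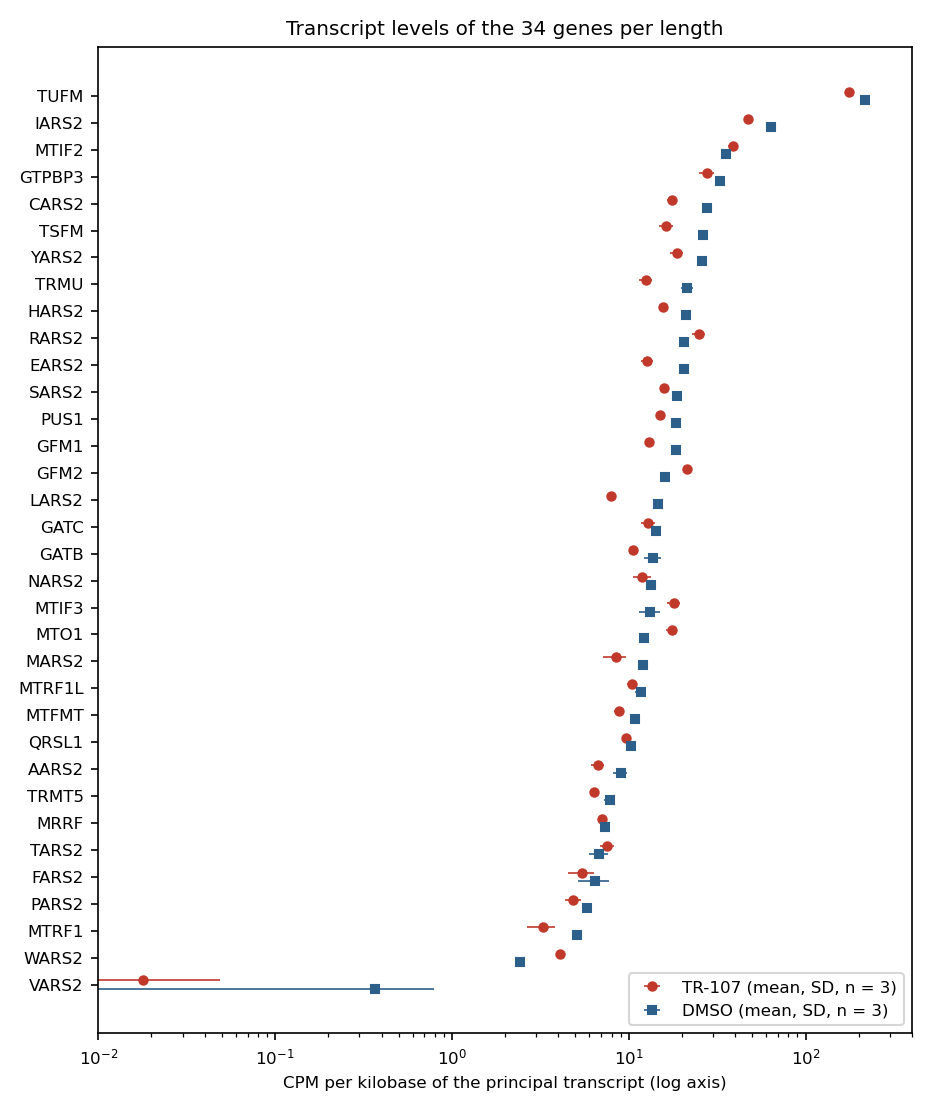
Level of each of the 34 members as CPM per kilobase of its principal transcript, on a log axis, in TR-107 (red circles) and DMSO (blue squares); points are means of 3 libraries and bars SDs, which run off the axis for VARS2. TUFM stands highest at 177 and 217 CPM per kilobase, and WARS2, MTRF1 and VARS2 lowest.

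Set per kilobase of the principal transcript, so that genes can be compared, TUFM stood far above the rest with 177 ± 1.31 CPM per kilobase in TR-107 and 217 ± 3.34 in DMSO. IARS2 followed with 47.3 ± 1.82 and 63.6 ± 1.596, and MTIF2 with 38.8 ± 2.48 and 35.4 ± 1.48. TSFM, the exchange factor of TUFM, stood at 16.3 ± 1.45 and 26.3 ± 1.19 CPM per kilobase (SD, n = 3 each). TUFM, IARS2 and MTIF2 also led in DMSO with the summed exons of a gene as its length. Below them the order depended on that choice: CARS2 ranked 5 by the principal transcript and 26 by summed exons, and TRMU ranked 8 and 28. GFM1 and GFM2, at 13.1 and 21.3 CPM per kilobase in TR-107, stood at 18.4 and 16.1 in DMSO. By summed exons GFM1 was below GFM2 in both groups, at 5.39 and 16.5 CPM per kilobase in TR-107 and 7.59 and 12.4 in DMSO, so a swap of their order is not shown per length.

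On a list of 19 further genes that process or modify mitochondrial tRNAs, 13 fell, 0 rose and 6 did not pass edgeR's test. The share that fell was 68.4%, where all genes tested had 28.6% lower and 29.2% higher. The median log2 fold change of the list was -0.39. At an unadjusted p under 0.05 the count of higher genes was 0 as well, and DESeq2 and limma-voom also called 0 higher. ELAC2, which trims the 3′ end of tRNA precursors, averaged 127 ± 5.14 CPM in TR-107 and 233 ± 3.88 CPM in DMSO (log2 fold change -0.88). TRMT10C, a subunit of mitochondrial RNase P, averaged 37.2 ± 5.15 and 73.7 ± 5.07 CPM (-0.98), and NSUN2, an RNA cytosine methyltransferase, 156 ± 3.60 and 223 ± 1.76 CPM (-0.51). QTRT2, a subunit of the enzyme that inserts queuine, was lower as well (-0.46).

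Of 12 further factors of mitochondrial translation, 5 fell and 2 rose, with a median of -0.03. These shares were 41.7% lower and 16.7% higher, where all genes tested had 28.6% and 29.2%. TACO1, a translational activator of a cytochrome oxidase subunit, SLIRP, an mRNA-binding partner of LRPPRC, FASTKD2 and the peptide deformylase PDF fell by 0.46 to 0.52 on the log2 scale. MTRFR, a release factor for stalled ribosomes, averaged 40.5 ± 1.99 CPM in TR-107 and 30.6 ± 3.07 CPM in DMSO and rose (0.41), as did the methionine aminopeptidase METAP1D (0.30). Of 74 mitochondrial ribosomal protein genes tested, 61 fell and 3 rose (82.4% and 4.05%), with a median of -0.33. Whether these lists differ from the members was not tested.

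**Figure D5:**
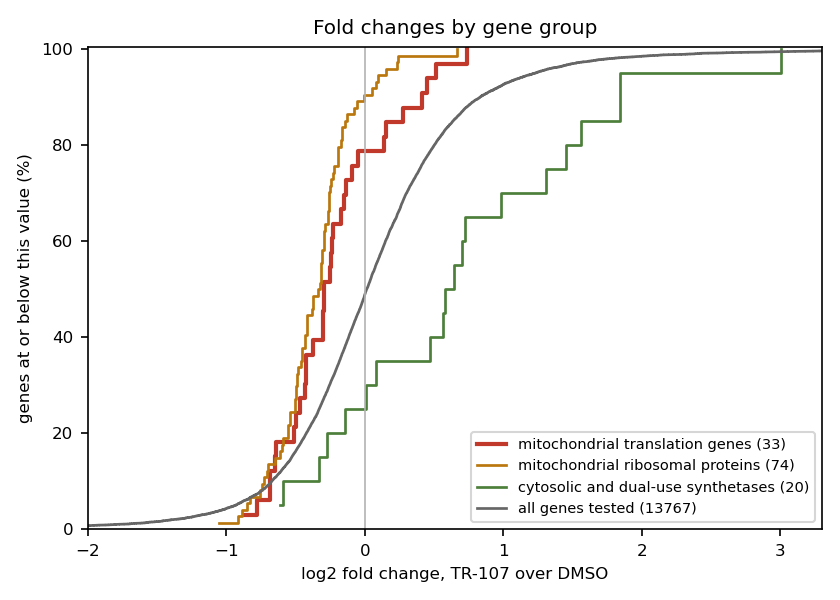
Cumulative share of genes at or below each log2 fold change, TR-107 over DMSO, for the 33 tested members (thick red), mitochondrial ribosomal proteins (orange), cytosolic and dual-use synthetases (green) and all 13767 genes tested (grey). The medians are -0.30, -0.33, 0.61 and 0.01.

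The genes for the mitochondrial tRNAs that these enzymes act on also have counts. In these, mature tRNA and longer RNA running through the gene cannot be told apart. Polyadenylated RNA was sequenced, so the counts are not read as levels of mature or charged tRNA. Of 22 in the files, 17 were tested, of which 6 fell, 4 rose and 7 did not pass. Over all genes tested, 57.8% passed the threshold, 28.6% as lower and 29.2% as higher. TRNL1, 1 of the tRNAs charged by LARS2, had 3.56, 4.60 and 1.86 CPM in TR-107, against 10.1, 9.61 and 10.5 CPM in DMSO, whereas TRNE, charged by EARS2, had 11.9, 13.4 and 11.4 CPM in TR-107, against 8.40, 7.47 and 5.91 CPM in DMSO. Of the 6 tRNA genes that fell, 5 belong to synthetases that also fell: TRNL1 to LARS2, TRNH to HARS2, TRNY to YARS2, TRNC to CARS2 and TRNS2 to SARS2. The other, TRNV, belongs to VARS2, which was not tested. Of the 15 member synthetases tested, 9 fell in all, and whether tRNA genes and their synthetases change together was not tested. Of the 4 that rose, TRNE and TRNK belong to EARS2 and KARS1, which fell, and TRNP and TRNT to PARS2 and TARS2, which did not pass. The tRNA genes for the other synthetases that fell, AARS2, IARS2 and MARS2, were not tested or did not pass. TRNL2, a further tRNA gene for LARS2, did not pass, and TRNS1, a further one for SARS2, was not tested. Several of these counts were low, with TRNS2 between 0.409 and 1.98 CPM over the 6 libraries.

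The position of genes sets a limit on some of these values. Exon bases shared with another gene were found in 21 of the 34 members, and in SARS2, VARS2, GATC, TSFM and MTRF1L they exceeded 20% of all exon bases. The part of such overlaps in the results was not tested.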

How the data were processed

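The deposited files hold raw counts of reads per gene, 1 file a library, by NCBI Gene ID. Per the submitters' processing notes, FastQC, Trimmomatic, HISAT2 and featureCounts were used with hg38. For versions, annotation, strand setting and multi-mapping reads, the settings were not given in the sources used here. IDs were matched to RefSeq symbols (27745 of 28395). The members, lists, pairs and motifs were chosen with earlier results of these data known.

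Counts were fitted in edgeR 4.0.16 (R 4.3.3) with TMM factors, filterByExpr and the robust quasi-likelihood test, by treatment alone, over the 13767 genes that passed, with Benjamini-Hochberg adjustment and a threshold of 0.05. The genes named were all members, their partners in pairs, CLPP, and on each list up to 4 genes a direction that passed with the smallest p; NFS1, the genes that overlap members, and the mitochondrial tRNA genes were named after their values were seen. Ratios of partner genes were compared by exact permutation of the libraries. Lengths and exon overlaps came from GENCODE v29, and promoter windows from RefSeq. In simulated counts for 13541 genes, 50 genes were changed per fold size, all with a mean count of at least 100. Of these changes, 54% of 1.25-fold, 86% of 1.5-fold, 98% of 2-fold and 100% of 4-fold were recovered. A far smaller share of genes changed there than passed in the data, so these recoveries need not hold for the data. Alternatives included DESeq2 1.42.0 and limma-voom (limma 3.58.1), other scalings and filters, and leaving out each library.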

Additional observations from a re-analysis of the deposited data

How the results depend on the processing

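The number of members that fell was 19 to 23 over 15 alternatives, and the number that rose was 5 to 6. The count of 23 came from library size without scaling factors, which moved the median of all genes to -0.05; PARS2, GATC, MTRF1L and NARS2 passed there. No member changed sign in a called result, and 27 of 33 kept their direction and call under every alternative run. MTIF2 lost its call in 7 alternatives, with adjusted p from 0.00827 to 0.278, and the cause was not tested. Leaving out 1 library at a time gave 19 to 21 lower, a range that counts VARS2 without TR-107 replicate 2 (21) and without DMSO replicate 3 (20), where it passed the filter and was called lower. With the replicate block, 19 members fell and 6 rose, but libraries with the same number did not deviate together (correlations of -0.031, -0.018 and 0.049 over genes), so the numbers were not taken as pairs. Leaving out mitochondrially encoded genes before scaling was added after seeing the data. Without a filter on low counts VARS2 was also called lower, on the few reads given above. It was tested and not called without TR-107 replicate 1 or 3. Depth limits WARS2, MTRF1, FARS2 and PARS2 most.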
